A study of Homo sapiens with 4 samples.

Results

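SR proteins and hnRNPs (heterogeneous nuclear ribonucleoproteins) were followed here as 39 genes of the 58735 rows in the shRNA table of this series. They are the protein-coding genes whose symbol is SRSF followed by a number (12 genes) or begins with HNRNP (27 genes). The same symbol was present for 36 of them among the 18964 rows of the wild-type table. HNRNPA1P48, HNRNPCL3 and HNRNPUL2-BSCL2 had a value in the shRNA table alone.

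SR proteins are RNA-binding proteins with a tail rich in arginine and serine, and most of them bind exons and help the spliceosome to recognise the neighbouring splice sites. hnRNPs coat nascent transcripts, and many of them repress splice sites or bridge introns, so that the choice of an alternative exon is often set by the balance of both families. Many SR protein and hnRNP genes limit their own output by splicing a premature stop codon into their transcripts, which are then degraded by nonsense-mediated decay. Both families have been studied in glioblastoma, where several members are known to shift the splicing of cell cycle and metabolic genes.

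RNA-seq was performed on U87, an established human glioblastoma cell line, in 4 groups with 1 library each. Wild-type (WT) U87 cells were kept in normoxia or in hypoxia at 1% O2. U87 cells with a scrambled shRNA (shScr) and U87 cells with an shRNA against ALKBH5 (shALKBH5), an RNA demethylase that erases m6A marks, were both kept in hypoxia, and no normoxic shRNA library was used here. The WT comparison shows which genes differed between hypoxia and normoxia, and the shRNA comparison shows which differed with the ALKBH5 shRNA within hypoxia. Without a normoxic shRNA library, whether a hypoxia response depends on ALKBH5 cannot be told. All 4 groups are cultures of a single line grown in serum, and the labels do not say how many shRNA sequences or clones stand behind each shRNA library.

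Values are FPKM, read fragments scaled to the length of the gene and to library size, so levels may be compared between genes per length. The WT and the shRNA table were normalised separately, and a level set across them is named as such. A change is the difference of log2(FPKM + 1) within a table, which understates changes of low genes, and was computed for genes with a mean of at least 1 FPKM over both libraries of a comparison. With 1 library in each group no difference has a replicate check, no test was possible, and genes are counted by size, at least 2-fold in either direction. RNA was measured in bulk, so fewer cells expressing a gene and less RNA per cell cannot be told apart.

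The shRNA libraries held 17859370 reads (shScr) and 16780154 reads (shALKBH5), recovered from the FPKM values and the gene lengths. For the WT libraries the depth is unknown. The hypoxia marker CA9 rose from 1.27 FPKM in WT normoxia to 321.7 FPKM in WT hypoxia and stood at 347.9 FPKM in shScr and 278.1 FPKM in shALKBH5. The ALKBH5 transcript was at 39.6 and 83.5 FPKM in the WT libraries, normoxia first. It was at 185.9 FPKM in shScr and 113.0 FPKM in shALKBH5 (8814 and 5711 reads), which is 60.8% of the shScr level as deposited. Of all genes tested, 13.6% were at least 1.5-fold lower in shALKBH5. Of the 7 glial and mesenchymal markers, VIM and CD44 were abundant in all libraries, while GFAP, S100B and SOX2 lay below 0.3 FPKM in each, OLIG2 was at most 1.35 FPKM, and NES was at 2.93, 3.28, 12.4 and 7.74 FPKM in WT normoxia, WT hypoxia, shScr and shALKBH5. Some markers of other cell types moved with hypoxia in the WT cells. The summed level of the 4 fibroblast and pericyte markers was 36.6 FPKM in normoxia and 173.2 FPKM in hypoxia, and both of those tested rose, COL1A1 from 35.2 to 160.8 FPKM and PDGFRB from 0.73 to 10.8 FPKM. The summed level of the 4 endothelial markers was 15.9 and 4.72 FPKM, KDR falling from 15.2 to 2.2 FPKM and PECAM1 rising from 0.69 to 2.5 FPKM, with CDH5 at 0 in both. Their part in the changes of the splicing factors was not tested. The myeloid marker CD68 was at 289.8 and 254.5 FPKM in the WT libraries but had 5 reads in shScr and 0 in shALKBH5, whereas PTPRC, AIF1 and ITGAM were near 0 in all 4.

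The promoters of 5 members on which the comparisons turn are shown as the 250 bases before the gene start in RefSeq (GRCh38.p14). SRSF9 and SRSF5 are the SRSF genes that were higher in WT hypoxia, SRSF7 was lower in WT hypoxia and higher with shALKBH5, and HNRNPAB and HNRNPF had the lowest changes in hypoxia. They lie at chr12:120469749-120469998 (minus strand, SRSF9), chr14:69766892-69767141 (plus strand, SRSF5), chr2:38751495-38751744 (minus strand, SRSF7), chr5:178204283-178204532 (plus strand, HNRNPAB) and chr10:43408858-43409107 (minus strand, HNRNPF). Letters run 5′ to 3′ on the strand of the gene, and capitals mark ACGTG and GCGTG, the cores of the hypoxia response element, or their reverse complements CACGT and CACGC.
SRSF9: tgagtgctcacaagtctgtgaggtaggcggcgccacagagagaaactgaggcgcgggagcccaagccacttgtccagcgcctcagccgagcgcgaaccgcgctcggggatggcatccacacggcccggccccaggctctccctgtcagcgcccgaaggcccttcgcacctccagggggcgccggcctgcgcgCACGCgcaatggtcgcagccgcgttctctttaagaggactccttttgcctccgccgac
SRSF5: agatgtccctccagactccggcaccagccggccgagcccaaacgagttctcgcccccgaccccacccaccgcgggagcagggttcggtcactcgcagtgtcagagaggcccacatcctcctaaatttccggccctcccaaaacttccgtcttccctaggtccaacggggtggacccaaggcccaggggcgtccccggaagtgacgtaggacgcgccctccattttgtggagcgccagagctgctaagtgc
SRSF7: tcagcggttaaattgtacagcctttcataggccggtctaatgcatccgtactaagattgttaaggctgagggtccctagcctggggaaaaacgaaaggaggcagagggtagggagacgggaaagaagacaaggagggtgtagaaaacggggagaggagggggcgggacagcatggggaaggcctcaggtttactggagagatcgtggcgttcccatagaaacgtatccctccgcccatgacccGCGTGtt
HNRNPAB: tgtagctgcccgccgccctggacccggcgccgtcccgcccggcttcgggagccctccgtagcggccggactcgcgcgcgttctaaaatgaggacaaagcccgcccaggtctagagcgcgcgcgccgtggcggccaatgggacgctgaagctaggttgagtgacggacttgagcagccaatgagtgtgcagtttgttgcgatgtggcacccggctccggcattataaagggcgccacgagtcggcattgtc
HNRNPF: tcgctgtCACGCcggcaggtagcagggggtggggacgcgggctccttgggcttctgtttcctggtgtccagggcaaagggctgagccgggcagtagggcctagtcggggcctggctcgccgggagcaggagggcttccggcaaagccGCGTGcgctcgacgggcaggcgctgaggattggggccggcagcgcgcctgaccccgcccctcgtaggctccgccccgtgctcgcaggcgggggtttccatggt

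A core was present once in the SRSF9 and SRSF7 windows and 2 times in the HNRNPF window, and it was absent from the SRSF5 and HNRNPAB windows. Of the 39 members, 35 had a promoter in RefSeq, and 27 of those 35 (77.1%) held either core on either strand, against 43.1% of all 27305 promoters of the same length. The windows of HNRNPUL2 and HNRNPUL2-BSCL2 overlap, and the same core was counted for both. All members are protein-coding, whereas no filter for gene type was applied to the 27305 promoters. The members' windows were richer in G and C, with a median of 64.8% against 58.0%. ACGTG was found in 40.0% of members' windows against 18.7% of all, and GCGTG in 60.0% against 31.9%. The E-box CACGTG, which holds ACGTG on both strands, was in 17.1% against 6.49%, and CCAAT or its reverse complement ATTGG was in 51.4% against 33.0%. These matches are letters in a window and are not evidence of binding.

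The level of the 2 families was spread over a wide range in every library, as the plot of FPKM in the 4 libraries shows. Most members were abundant, and 6 were near or at 0. SRSF12 had 0.06 FPKM in WT normoxia, 0 in WT hypoxia and 1 read in shScr, with 0 in shALKBH5. The retrogene-like HNRNPCL1, HNRNPCL2 and HNRNPCL4 were at 0 or 0.06 FPKM in the WT libraries. These 3 genes, HNRNPCL3 and the readthrough gene HNRNPUL2-BSCL2 had 0 reads in both shRNA libraries, where 3 reads is the limit that a count of 0 allows. That left 32 members in the hypoxia comparison (11 SRSF and 21 HNRNP) and 33 in the shRNA comparison (11 and 22).

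**Figure D1:**
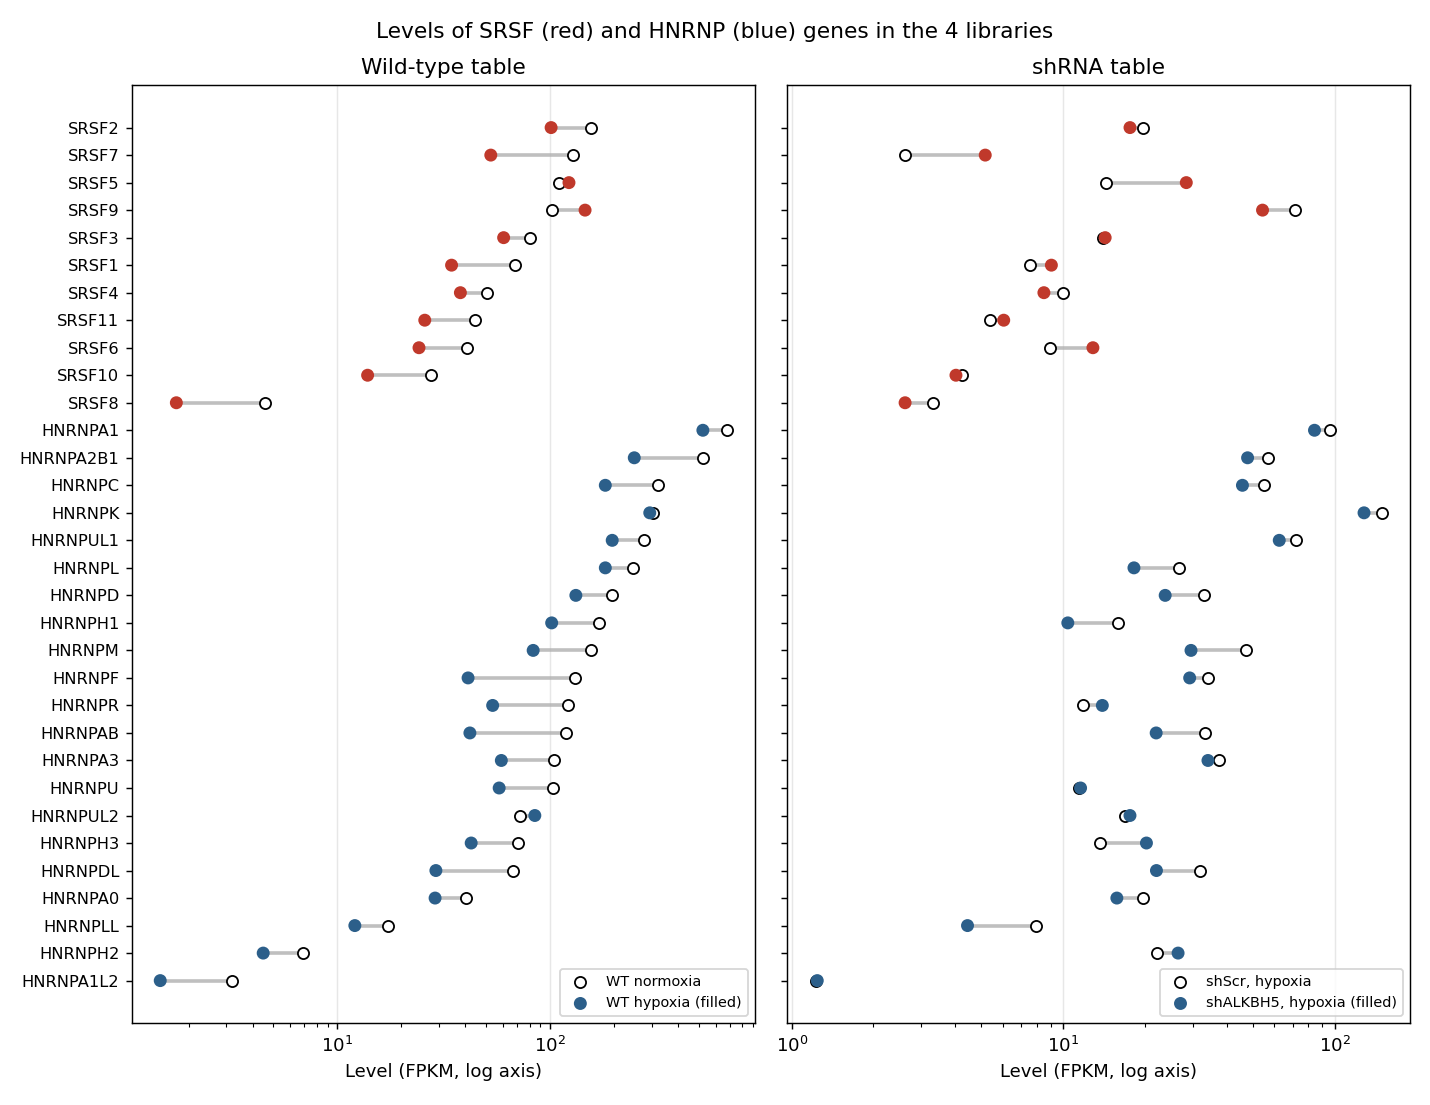
Level in FPKM (log axis) of each SRSF (red) and HNRNP (blue) gene with a mean of at least 1 FPKM in both tables, in the WT table (left) and the shRNA table (right), 1 library for each point. Open circles are WT normoxia or shScr and filled circles WT hypoxia or shALKBH5. In the left panel the filled circle lies to the left of the open one for all genes but SRSF5, SRSF9 and HNRNPUL2.

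The 3 most abundant HNRNP genes in WT normoxia were HNRNPA1, HNRNPA2B1 and HNRNPC. In shScr they were HNRNPK at 149.7 FPKM, HNRNPA1 at 96.1 FPKM and HNRNPUL1 at 72.3 FPKM. Among SRSF genes, SRSF2, SRSF7 and SRSF5 led in WT normoxia, at 156.1, 128.6 and 110.6 FPKM. SRSF9 led in the other 3 libraries, at 146.0 FPKM in WT hypoxia, 71.7 FPKM in shScr and 54.3 FPKM in shALKBH5. Summed FPKM of the HNRNP genes exceeded that of the SRSF genes 4.58-fold in WT normoxia and 3.86-fold in WT hypoxia. The same ratio was 4.90 in shScr and 4.11 in shALKBH5.

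In WT hypoxia most of both families stood lower than in normoxia. Of the 32 members, 7 fell at least 2-fold (21.9%), and 0 rose. Over all 11050 genes tested, 14.7% fell and 7.41% rose by that rule. HNRNPF, HNRNPAB, SRSF7, HNRNPDL, HNRNPR, HNRNPA2B1 and SRSF8 were the 7. At least 1.5-fold, 19 of 32 members were lower, against 35.3% of all genes, and 0 were higher, against 13.2%. The change was below 0 for 29 of 32 members, where 69.1% of all genes were below 0 and 30.8% above, and below the median of all genes (-0.35) for 28. The median change was -0.72 for the 11 SRSF genes and -0.73 for the 21 HNRNP genes. With each change centred on the median of all genes, 2 of 32 members remained 2-fold lower, HNRNPAB at -1.13 and HNRNPF at -1.30. Over all genes 5.73% were lower when centred, so the members' count past the 2-fold rule was close to that share. Below that size the members still stood lower, with centred medians of -0.37 for SRSF and -0.38 for HNRNP genes. The share of higher genes among all calls went from 33.5% to 67.5% with the centring.

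The depth of the shRNA libraries allows a 95% exact interval (Clopper-Pearson) of the read ratio, given on the log2 scale with no constant added. An interval printed after a change belongs to that ratio and not to the log2(FPKM + 1) difference, so the change need not lie at its middle. Such an interval describes the 2 libraries and their counting error, and says nothing of the spread between cultures. Of the 33 members, 0 passed the 2-fold rule in shALKBH5 against shScr in either direction, where 1.76% of all 10925 genes tested were higher and 3% were lower. SRSF5 and SRSF7 were at least 1.5-fold higher and HNRNPLL and HNRNPM at least 1.5-fold lower, against 8.49% and 13.6% of all genes. The counting interval lay above 0 for 8 members and below 0 for 19, and it held 0 for 6. Over all genes it lay above 0 for 31.7% and below 0 for 38.3%. The median change was 0.02 for SRSF genes and -0.22 for HNRNP genes, against -0.04 for all genes. On the TPM scale every library sums to the same total. There the medians were 0.27 for SRSF and 0.037 for HNRNP genes, against 0.23 for all genes. The HNRNP median thus lay below that of all genes on both scales. The change was above 0 for 12 members and below 0 for 21, against 46.9% and 53.1% of all genes.

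The deposited shRNA values were not scaled to the total recovered reads, and that scaling would move each FPKM ratio of shALKBH5 to shScr up by 0.18 on the log2 scale. On the log2(FPKM + 1) scale the members' changes would move up by 0.095 (HNRNPA1L2) to 0.18 (HNRNPK). Under the 4 scalings computed, 12 members were above 0 in all and 11 were below 0 in all. Such counts were not made over all genes, so they are no result about the members. The all-gene median itself was -0.04 as deposited, 0.10 on total reads and 0.23 as TPM. The sign turned with the scaling for the other 10 members, namely HNRNPA1, HNRNPA1P48, HNRNPA2B1, HNRNPA3, HNRNPF, HNRNPK, HNRNPUL1, SRSF2, SRSF4 and SRSF10. On the total-read scale the intervals lay above 0 for 11 members, below 0 for 12, and held 0 for 10, against 43% of all genes above 0 and 28.1% below. Among calls over all genes, 36.9% were higher on the deposited scale, 61.2% on the total-read scale and 74.5% on the TPM scale.

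SRSF1 and its closest relative SRSF9 take part in exon recognition, and SRSF1 is a known proto-oncogene. SRSF9 (ENSG00000111786, GRCh38 chromosome 12, 120461668 to 120469793) was expressed at 102.0 FPKM in WT normoxia, 146.0 FPKM in WT hypoxia, 71.7 FPKM in shScr and 54.3 FPKM in shALKBH5. It was the member with the highest change in hypoxia, 0.51, and was above 0 under each scaling computed, while its change with shALKBH5 was -0.40 (interval -0.47 to -0.33). SRSF1 stood at 68.1 and 34.4 FPKM in WT normoxia and hypoxia, a change of -0.96. In the shRNA table it had 374 reads at 7.53 FPKM in shScr and 479 reads at 9.05 FPKM in shALKBH5, a change of 0.24 (interval 0.07 to 0.46). Thus SRSF9 and SRSF1 lay on opposite sides of 0 in both comparisons. Relative to genes of like GC content, however, both were below 0 with shALKBH5, SRSF1 at -0.04 and SRSF9 at -0.32. The ratio of their levels per length went from 1.5 in normoxia to 4.24 in hypoxia, a 2.83-fold difference. In the shRNA libraries it was 9.51 with shScr and 6.0 with shALKBH5, 0.630-fold (95% exact interval 0.545 to 0.729). GATC lies on the opposite strand and shares 46.2% of the exon bases of SRSF9, and its own level was 4.23 FPKM, so that without strand some reads of the pair cannot be told apart. The annotated gene AC015813.2, with 0 reads, shares 56.6% of the exon bases of SRSF1.

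SRSF4, SRSF5 and SRSF6 form a related group of longer SR proteins. SRSF5 (ENSG00000100650, chromosome 14, 69726900 to 69772005) was expressed at 110.6 FPKM in WT normoxia, 122.6 FPKM in WT hypoxia, 14.4 FPKM in shScr and 28.4 FPKM in shALKBH5. It was alone among the SRSF genes in lying above 0 in both comparisons, with changes of 0.15 and 0.93. The shRNA difference rested on 1146 and 2413 reads, and the log2 ratio without the constant was 0.98 (interval 0.88 to 1.08). It came just under the 2-fold rule on the deposited scale and past it at 1.1 on the total-read scale and at 1.22 on the TPM scale, where 2.71% and 8.40% of all genes were past it in that direction. SRSF6 stood at 40.6, 24.2, 8.98 and 12.9 FPKM in WT normoxia, WT hypoxia, shScr and shALKBH5. Its changes were -0.72 in hypoxia and 0.47 with shALKBH5 (interval 0.37 to 0.67, from 613 and 937 reads). SRSF4 stood at 50.2, 37.9, 9.99 and 8.49 FPKM in the same order. The level of SRSF5 relative to SRSF4 was 2.2 and 3.24 in the WT libraries and went from 1.44 to 3.35 in the shRNA libraries, a 2.32-fold difference (95% exact interval 2.09 to 2.58).

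SRSF3 and SRSF7 are small SR proteins that also act as adaptors for mRNA export. SRSF7 (ENSG00000115875, chromosome 2, 38743599 to 38751494) fell from 128.6 FPKM in WT normoxia to 52.6 FPKM in WT hypoxia, a change of -1.27. In the shRNA table it had 157 reads at 2.61 FPKM in shScr and 331 reads at 5.16 FPKM in shALKBH5, a change of 0.77. Its log2 ratio without the constant was 0.98 with a wide counting interval of 0.70 to 1.27, and its TPM change of 1.14 was past the 2-fold rule. SRSF3 stood at 80.8 and 60.5 FPKM in WT normoxia and hypoxia, a change of -0.41. In the shRNA libraries SRSF3 was at 14.1 and 14.3 FPKM, a change of 0.02 (interval -0.08 to 0.12). Relative to SRSF3, SRSF7 thus went from 1.59 to 0.870 with hypoxia, and from 0.186 to 0.362 with shALKBH5, a 1.95-fold difference (95% exact interval 1.58 to 2.40).

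SRSF2, an SR protein that stays in the nucleus, and SRSF8, a gene copied from SRSF2, stood far apart in level. SRSF2 was at 156.1 and 101.1 FPKM in WT normoxia and hypoxia, a change of -0.62, and at 19.7 and 17.6 FPKM in shScr and shALKBH5. MFSD11 shares 36.7% of SRSF2's exon bases on the opposite strand, at 4.24 FPKM. SRSF8 fell from 4.55 to 1.75 FPKM in hypoxia, a change of -1.01 close to the 2-fold line, and had 199 and 167 reads in the shRNA libraries. SRSF10, which represses splicing when dephosphorylated, stood at 27.6 and 13.9 FPKM in WT normoxia and hypoxia, a change of -0.95, with 4.24 and 4.03 FPKM in shScr and shALKBH5. SRSF11 stood at 44.2, 25.8, 5.36 and 6.04 FPKM in the 4 libraries, with changes of -0.76 and 0.15. These 4 genes were all lower in WT hypoxia, and SRSF11 alone had a shRNA interval above 0 (0.02 to 0.32).

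**Figure D2:**
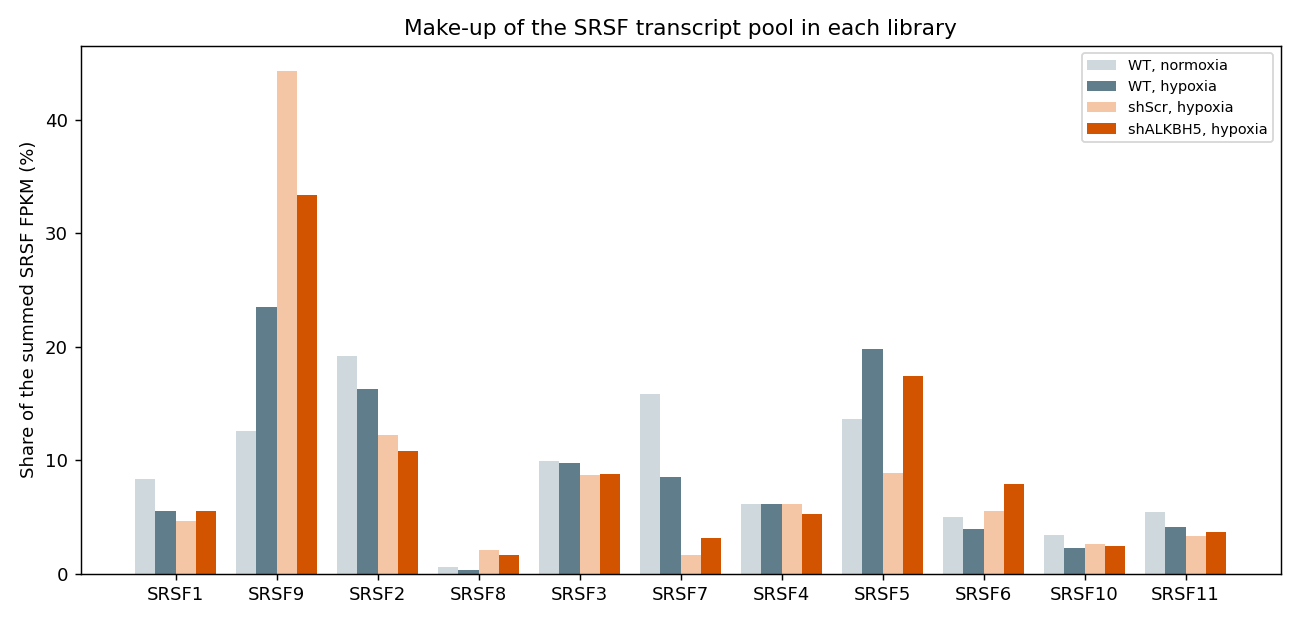
Share of the summed FPKM of the 12 SRSF genes (%) taken by each gene in the 4 libraries, 1 library for each bar, with SRSF12 left out because it was near 0. SRSF9 took 12.5% in WT normoxia and 23.5% in WT hypoxia, 44.3% in shScr and 33.3% in shALKBH5, and SRSF5 took 8.89% in shScr and 17.5% in shALKBH5.

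Seen as a make-up of SRSF transcripts per length, the order of the genes differed between libraries, as the plot of SRSF shares shows. Of the summed SRSF FPKM, SRSF9 made up 12.5% in normoxia and 23.5% in hypoxia of the WT cells, while SRSF7 made up 15.8% and 8.48%. In the shRNA libraries SRSF9 took 44.3% with shScr and 33.3% with shALKBH5, and SRSF5 took 8.89% and 17.5%. The summed SRSF level was 813.4 FPKM in normoxia and 620.5 FPKM in hypoxia, but 161.9 FPKM in shScr and 162.8 FPKM in shALKBH5. Between the shRNA libraries the total was thus nearly level on the deposited scale while its parts were not. As a share of the FPKM of all genes, the SRSF genes made up 0.0463% in shScr and 0.0557% in shALKBH5, so the level total depends on the scale.

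The A group, HNRNPA1, HNRNPA2B1, HNRNPA3 and HNRNPA0, holds classic repressors of exon inclusion, and HNRNPA2B1 has also been described as a reader of m6A. HNRNPA2B1 (ENSG00000122566, chromosome 7, 26173057 to 26201529) fell from 520.8 FPKM in WT normoxia to 248.6 FPKM in WT hypoxia, a change of -1.06. It was at 56.7 FPKM in shScr and 47.8 FPKM in shALKBH5, a change of -0.24 (interval -0.29 to -0.20). HNRNPA1 stood at 675.6, 522.4, 96.1 and 84.3 FPKM in WT normoxia, WT hypoxia, shScr and shALKBH5, with changes of -0.37 and -0.19. Their ratio, HNRNPA1 over HNRNPA2B1, differed 1.62-fold between hypoxia and normoxia and 1.04-fold between shALKBH5 and shScr (95% exact interval 0.994 to 1.09). HNRNPA3 stood at 104.8, 59.0, 37.4 and 34.2 FPKM in the same order, and HNRNPA0 at 40.1, 28.8, 19.6 and 15.8 FPKM. The low copies HNRNPA1L2 (3.18, 1.47, 1.23 and 1.24 FPKM) and HNRNPA1P48 (2.69 and 2.39 FPKM, shRNA table alone) resemble HNRNPA1, and their reads may be shared with it.

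HNRNPC, which binds uridine tracts and masks cryptic exons, stood at 321.8 and 181.7 FPKM in WT normoxia and hypoxia, a change of -0.82. In shScr and shALKBH5 it was at 54.8 and 45.8 FPKM, a change of -0.26. HNRNPK, a KH-domain protein that binds cytidine-rich RNA, stood at 304.7 and 294.0 FPKM in WT normoxia and hypoxia, a change of -0.05 that turned to 0.30 when centred on the median gene. In the shRNA libraries it was at 149.7 and 128.4 FPKM, a change of -0.22. HNRNPK was thus level with HNRNPC in normoxia, at a ratio of 0.947, and 1.62 times its level in hypoxia.

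The D group, HNRNPD, HNRNPDL and HNRNPAB, shares a pair of RNA recognition motifs, and HNRNPD (AUF1) is known for binding AU-rich elements of unstable mRNAs. HNRNPAB (ENSG00000197451, chromosome 5, 178204507 to 178211163) fell from 119.1 FPKM in WT normoxia to 42.0 FPKM in WT hypoxia, a change of -1.48. In shALKBH5 it was at 22.0 FPKM (748 reads) against 33.4 FPKM (1064 reads) in shScr, a change of -0.58 (interval -0.74 to -0.46). HNRNPDL fell from 66.58 to 29.04 FPKM in hypoxia, a change of -1.17, and was at 31.9 and 22.1 FPKM in shScr and shALKBH5, a change of -0.51. HNRNPD stood at 194.6 and 132.1 FPKM in the WT libraries, a change of -0.56, and at 33.2 and 23.8 FPKM in the shRNA libraries, a change of -0.46. All 3 genes of this group were below 0 in both comparisons and under each scaling computed. Relative to HNRNPAB, HNRNPD differed 1.93-fold in hypoxia and 1.09-fold with shALKBH5 (95% exact interval 0.976 to 1.21).

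HNRNPF, HNRNPH1, HNRNPH2 and HNRNPH3 bind runs of guanosine near splice sites. HNRNPF (ENSG00000169813, chromosome 10, 43385617 to 43409166) had the lowest change of any member in hypoxia, falling from 131.2 to 41.1 FPKM, a change of -1.65. It was at 34.1 FPKM in shScr and 29.2 FPKM in shALKBH5, a change of -0.21. HNRNPH1 stood at 169.0 and 101.7 FPKM in WT normoxia and hypoxia, a change of -0.73, and HNRNPH3 at 71.0 and 42.6 FPKM, also -0.73. Their ratio, HNRNPH3 over HNRNPH1, was therefore the same in both WT libraries, 0.420 and 0.418. In the shRNA libraries these paralogs lay on opposite sides of 0. HNRNPH1 had 2245 reads at 15.9 FPKM in shScr and 1563 reads at 10.4 FPKM in shALKBH5, a change of -0.57 (interval -0.71 to -0.52). HNRNPH3 had 1087 reads at 13.6 FPKM in shScr and 1726 reads at 20.3 FPKM in shALKBH5, a change of 0.54 (interval 0.46 to 0.69). The HNRNPH3 to HNRNPH1 ratio was 0.854 in shScr and 1.95 in shALKBH5, 2.28-fold apart (95% exact interval 2.06 to 2.52). HNRNPH2 stood at 6.88, 4.48, 22.2 and 26.5 FPKM in WT normoxia, WT hypoxia, shScr and shALKBH5, and the readthrough gene RPL36A-HNRNPH2, which shares 16.3% of its exon bases, had 0 reads.

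HNRNPL binds CA repeats, and its paralog HNRNPLL is known for exon skipping of CD45 in lymphocytes. HNRNPL stood at 246.4 and 181.7 FPKM in WT normoxia and hypoxia and at 26.6 and 18.2 FPKM in shScr and shALKBH5, with changes of -0.44 and -0.52. HNRNPLL stood at 17.3 and 12.1 FPKM in the WT libraries, a change of -0.49. It had 702 reads at 7.97 FPKM in shScr and 417 reads at 4.44 FPKM in shALKBH5, and its change of -0.72 was the lowest of all members with shALKBH5. The log2 ratio of HNRNPLL without the constant was -0.84 (interval -1.02 to -0.67). HNRNPM stood at 155.4 and 83.2 FPKM in WT normoxia and hypoxia, a change of -0.89. It was at 47.1 FPKM (3930 reads) in shScr and 29.6 FPKM (2632 reads) in shALKBH5, a change of -0.65 (interval -0.74 to -0.60). These 3 genes were below 0 in both comparisons.

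HNRNPU, also called scaffold attachment factor A, binds chromatin and RNA, and HNRNPUL1 and HNRNPUL2 are its relatives. HNRNPUL2 stood at 72.1 FPKM in WT normoxia, 84.7 FPKM in WT hypoxia, 16.9 FPKM in shScr and 17.6 FPKM in shALKBH5, with changes of 0.23 and 0.06. It was the HNRNP gene above 0 in hypoxia under each scaling computed. HNRNPU stood at 103.5, 57.6, 11.47 and 11.59 FPKM, with changes of -0.83 and 0.01, and HNRNPUL1 at 277.7, 195.8, 72.3 and 62.5 FPKM, with changes of -0.50 and -0.21. The ratio of HNRNPUL2 to HNRNPU was 0.696 in normoxia and 1.47 in hypoxia, a 2.11-fold difference, and differed 1.03-fold with shALKBH5 (95% exact interval 0.949 to 1.13). TGFB1, at 343.6 FPKM in the shRNA libraries, shares 3.29% of HNRNPUL1's exon bases on the opposite strand. The readthrough gene HNRNPUL2-BSCL2, with 0 reads, shares 44.1% of HNRNPUL2's exon bases on the same strand. COX20, at 0.37 FPKM, shares 15.6% of HNRNPU's exon bases on the opposite strand. HNRNPR, a relative of SYNCRIP, fell from 121.3 to 53.7 FPKM in hypoxia, a change of -1.16, and was at 11.8 FPKM in shScr and 13.9 FPKM in shALKBH5, a change of 0.22 (interval 0.14 to 0.33).

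**Figure D3:**
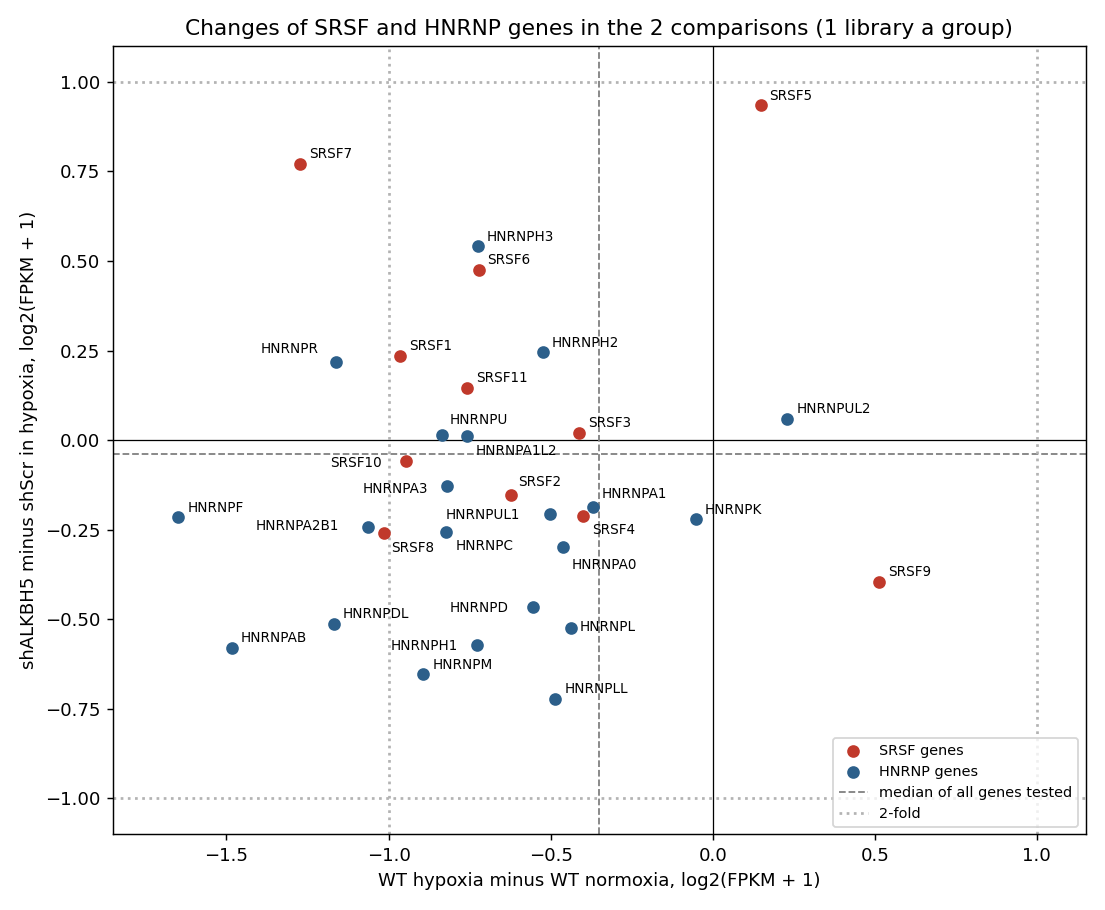
Change in hypoxia, as the difference of log2(FPKM + 1) between the WT libraries (x axis), and in shALKBH5 minus shScr (y axis), for the 32 members tested in both, SRSF genes in red and HNRNP genes in blue, 1 library a group. Dashed lines are the medians of all genes tested (-0.35 and -0.04) and dotted lines mark 2-fold. Of the points, 19 lie below 0 on both axes, where 69.1% of all genes lay below 0 in hypoxia and 53.1% with shALKBH5. SRSF5, SRSF7 and HNRNPH3 stand highest on the y axis.

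The 2 comparisons use different libraries, and their changes were set side by side for the 32 members tested in both. Both changes were below 0 for 19 members, which include all of the D group, HNRNPL, HNRNPLL and HNRNPM. Of all genes, 69.1% were below 0 in hypoxia and 53.1% with shALKBH5. The share of all genes below 0 in both was not computed, so these counts are not set apart from it. A change below 0 in hypoxia and above 0 with shALKBH5 was seen for 10, namely SRSF1, SRSF3, SRSF6, SRSF7, SRSF11, HNRNPA1L2, HNRNPH2, HNRNPH3, HNRNPR and HNRNPU. SRSF5 and HNRNPUL2 were above 0 in both, and SRSF9 alone was above 0 in hypoxia and below 0 with shALKBH5. Spearman's rho between the 2 changes was 0.04 over these 32 genes, a description of members and not of replicates. It was not computed over all genes.

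**Figure D4:**
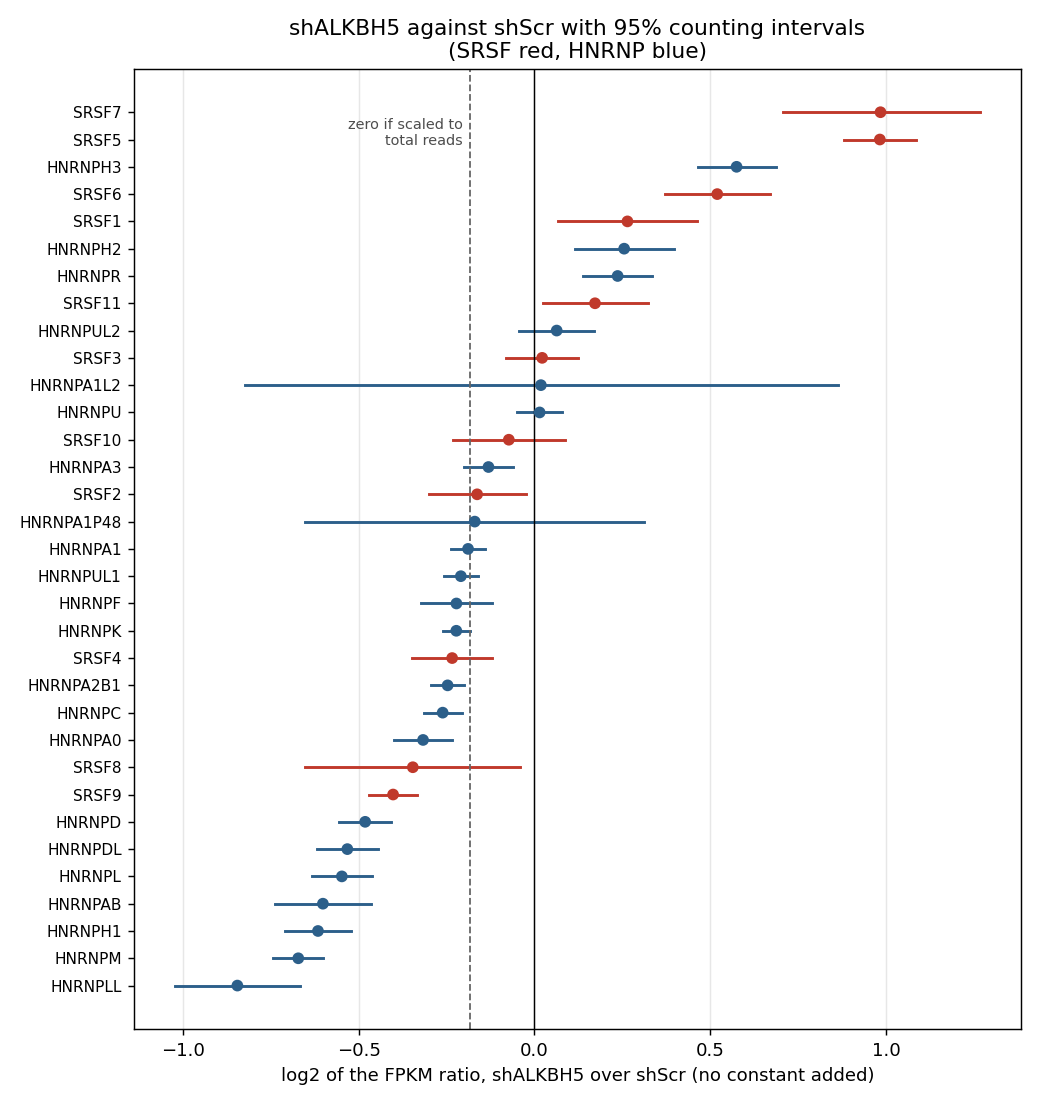
Log2 of the FPKM ratio of shALKBH5 over shScr, with no constant added (x axis), for the 33 members tested (SRSF red, HNRNP blue), with 95% exact counting intervals as horizontal lines. The solid line is 0 on the deposited scale and the dashed line where 0 would lie if libraries were scaled to total reads. SRSF7 and SRSF5 lie highest and HNRNPLL lowest, and the intervals of HNRNPA1L2 (25 and 27 reads) and HNRNPA1P48 (77 and 73 reads) are the widest.

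Counting error alone is thus small for most members, as the plot of counting intervals shows, and the difference between cultures remains unmeasured. The GC content of the transcript moved with the shRNA comparison. Over 9585 protein-coding genes, Spearman's rho between the change with shALKBH5 and the GC content of the longest coding transcript was -0.55, and over the 33 members it was -0.36. The median change was 0.30 in the lowest of 10 GC bins and -0.43 in the highest. Taken relative to the median of genes of like GC content, the changes were 0.93 for SRSF5, 0.50 for SRSF7, 0.27 for HNRNPH3, 0.20 for SRSF6, -0.39 for HNRNPM and -1.02 for HNRNPLL. Other members changed sign on this measure. SRSF1 (-0.04), SRSF3 (-0.25), SRSF11 (-0.15), HNRNPA1L2 (-0.13), HNRNPR (-0.08) and HNRNPU (-0.20) went from above to below 0. HNRNPUL1 went from below 0 to 0.12. In hypoxia rho was 0.24, and relative to the GC bin HNRNPAB was at -1.24, HNRNPF at -1.21, SRSF7 at -0.75, SRSF5 at 0.50 and SRSF9 at 0.75. The part of GC content in these differences was not tested.

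**Figure D5:**
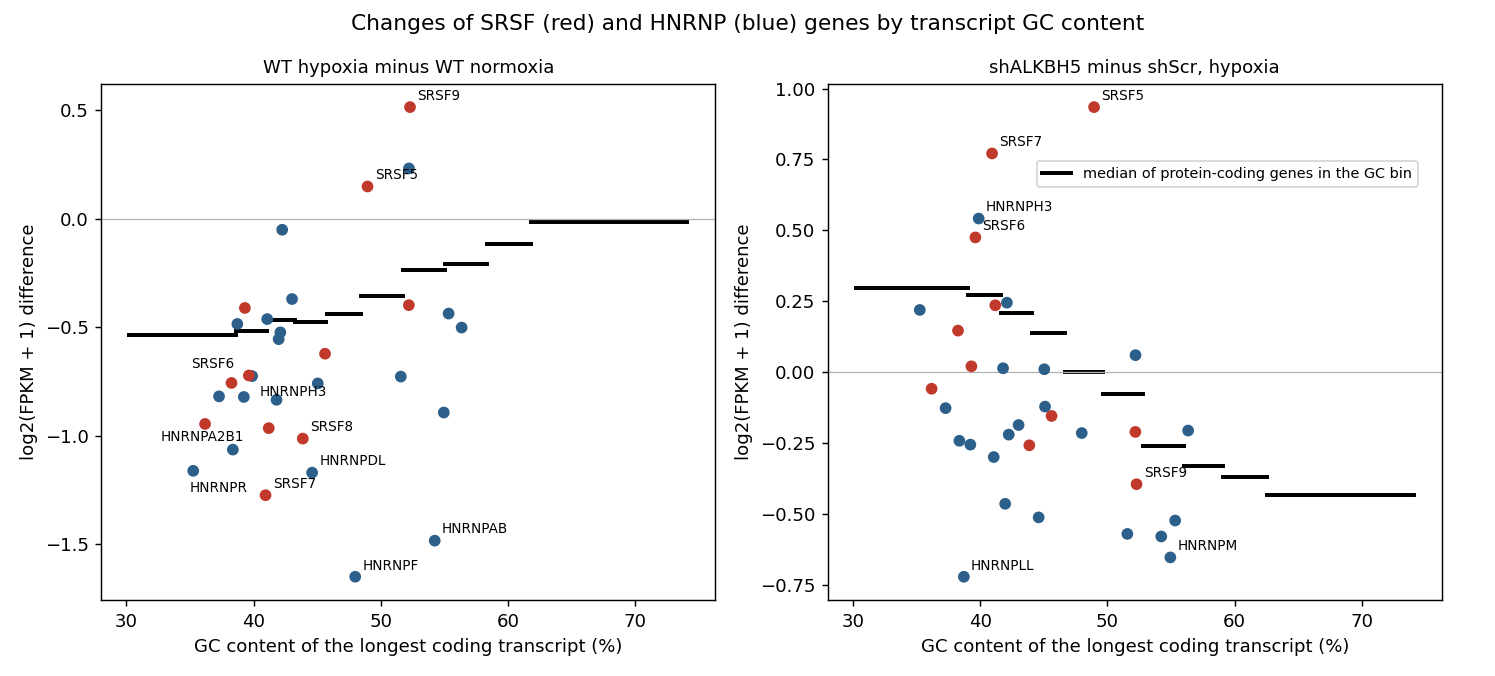
Difference of log2(FPKM + 1) in hypoxia (left) and with shALKBH5 (right) against the GC content (%) of the longest coding transcript for SRSF (red) and HNRNP (blue) genes. Black bars are medians of protein-coding genes in 10 bins of GC content, and they run from -0.54 to -0.01 on the left and from 0.30 to -0.43 on the right. SRSF5 and SRSF7 lie above their bars on the right, and HNRNPF and HNRNPAB lie farthest below theirs on the left.

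The hypoxic controls of the 2 tables, WT hypoxia and shScr, gave several members a different place. Among 18217 genes shared by both tables, ranked within each library, SRSF7 was at percentile 91.8 in WT hypoxia and 60.5 in shScr, and HNRNPH2 was at 57.7 and 88.1. SRSF1 was at 87.8 and 75.3, while HNRNPK was at 98.6 and 98.1 and SRSF9 at 97.1 and 96.0. Gene length in the shRNA table counted every annotated exon base, also of transcripts with no coding role. Such bases, outside all coding transcripts, made up 38.5% of the SRSF7 length, 38.2% for SRSF5, 67.9% for SRSF9 and 0% for HNRNPH2. Over 32 members, Spearman's rho between that share and the log2 ratio of shScr to WT hypoxia was -0.49, across separately normalised tables, and it was -0.11 for the change with shALKBH5. Neither rho was computed over all genes, and the part of gene length in the differing places was not tested.

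The annotation of the members held many transcripts of the kind by which these families limit themselves. Of the 33 members tested in the shRNA table, 24 (72.7%) had an annotated transcript subject to nonsense-mediated decay, against 43.0% of 9593 protein-coding genes tested. A retained-intron transcript was annotated for 22 (66.7%), against 58.6%, with a median of 1 such transcript in both sets. Members also had more annotated transcripts of any kind, a median of 11 against 8, and the part of this in the shares was not tested. HNRNPH1 had 50 annotated transcripts, 16 of them with a retained intron, HNRNPU had 9 subject to decay, SRSF7 had 6 and SRSF5 had 8 with a retained intron. Gene-level FPKM sums all of these, so coding and non-coding isoforms cannot be told apart here. Processed pseudogenes of the members took few reads, 487 in shScr and 522 in shALKBH5 over 126 annotated copies of 17 members, and at most 2.98% of the reads of a parent gene.

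Other splicing genes give the setting of these changes. Of 18 SR-related proteins tested in hypoxia, 0 rose and 3 fell, namely PNN (-1.70), SRRM1 (-1.20) and SCAF4 (-1.08), with a median of -0.66. With shALKBH5, 0 of 17 passed the 2-fold rule, with a median of 0.03, and the highest changes were those of TRA2A (0.97) and TRA2B (0.68), sequence-specific activators of exons. TRA2A had 182 reads in shScr and 432 in shALKBH5. Of 11 kinases, phosphatases and importers of SR proteins, DYRK1B (1.65) and CLK3 (1.05) rose in hypoxia while PRPF4B (-1.23) and SRPK1 (-1.22), the kinase that sends SR proteins into the nucleus, fell. None of 10 passed the rule with shALKBH5, where SRPK1 was at 0.60 and PPP1CA at -0.73. These median changes stand beside -0.35 and -0.04 for all genes. For the counts of these and the following lists, 14.7% of all genes fell and 7.41% rose by the 2-fold rule in hypoxia. The all-gene shares with shALKBH5 were 3% and 1.76%.

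Among hnRNP-like proteins without the HNRNP symbol, PCBP3 (1.13), which binds cytidine-rich RNA, rose in hypoxia, and the 17 genes tested had a median of -0.53. With shALKBH5, 0 of 16 passed the rule, with TARDBP at -0.84, PCBP3 and KHSRP at -0.71 and SYNCRIP, the relative of HNRNPR, at 0.66. Of 22 proteins of the U1 and U2 snRNPs and the branch point, 4 fell in hypoxia, SF1 (-1.32), LUC7L (-1.17), SF3A1 (-1.1) and SNRPA1 (-1.04). That is 18.2%, against 14.7% of all genes. All 22 were below 0, where 69.1% of all genes were, with a median of -0.75. With shALKBH5 SF3B2, a U2 snRNP subunit, fell from 58.2 to 22.4 FPKM, a change of -1.34. The 20 genes tested had a median of -0.43, or -0.18 on the TPM scale, where the median of all genes was 0.23.

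The Sm and LSm ring proteins had 3 of 15 lower in hypoxia, LSM5 (-1.35), LSM2 (-1.34) and SNRPD1 (-1.27), and 0 of 14 past the rule with shALKBH5, where SNRPB was at -0.94. The tri-snRNP proteins had 3 of 15 lower in hypoxia, PRPF4 (-1.15), USP39 (-1.14) and PRPF8 (-1.05). The ring and tri-snRNP lists each had 20% lower, against 14.7% of all genes. PRPF8, the core scaffold of the spliceosome, also fell with shALKBH5 (-1.14), the single one of 15. Of the tissue-regulated splicing factors, KHDRBS3 (-1.5) fell of 14 in hypoxia and MBNL2 (-1.16) fell of 11 with shALKBH5. Of 15 nonsense-mediated decay factors UPF2 (-1.14) and UPF1 (-1.1) fell in hypoxia, 13.3% against 14.7% of all genes. None of the 15 passed the rule with shALKBH5. Of 9 nuclear m6A genes, ALKBH5 rose in hypoxia (1.06), and with shALKBH5 0 of 9 passed the rule, with ALKBH5 at -0.71 and YTHDC1, an m6A reader that recruits SRSF3, at 0.55.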

How the data were processed

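The authors deposited FPKM values, per the file headers, in a gene table of the WT libraries and one of the shRNA libraries. The submitters' processing notes name hg19. Coordinates and lengths of all 58735 shRNA rows, however, equalled GENCODE release 29 on GRCh38, the length being all annotated exon bases of a gene. For the aligner, the counter and strand use, nothing is given in the sources. In the WT table, 65 rows with a bare number or date as symbol were left out. FPKM times length was a whole number of reads for 100% of shRNA values, within 0.01 read, which gave the depth of 17859370 and 16780154 reads. Where symbols repeat, the row with the highest mean was retained.

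A change is the log2(FPKM + 1) difference, with a filter of 1 FPKM and a 2-fold rule. The first promoter listed in RefSeq was used for 10 members with several. Members changed at least 1.5-fold in either comparison and the 3 most abundant in each family are named with their levels, and other members are given too. Of each other list, the genes past 2-fold are named, otherwise up to 3 with the largest changes. One result of these lists is not reported here. Members and lists were chosen with earlier results of these data known. The alternatives were a constant of 0.1 FPKM, no filter or one of 5 FPKM, median centring, TPM, total recovered reads, protein-coding genes only, at least 50 reads, summed rows, and 1.5-fold and 3-fold rules, with GC and FPKM bins added after seeing the data. The 2-fold rule and intervals were tested on simulated data. The software was scipy 1.17.1, pandas 2.3.3, numpy 2.4.6 and matplotlib 3.10.9 under Python 3.11.15.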

Additional observations from a re-analysis of the deposited data

How the results depend on the processing

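No paired analysis was possible because each group had 1 library and no replicate number. In hypoxia, the 7 members lower became 2 when centred on the median gene (5.73% of all genes), 2 relative to genes of like GC content (5.79%), 19 at 1.5-fold and 1 at 3-fold. Relative to genes of like FPKM, HNRNPF (-1.62), HNRNPAB (-1.46), SRSF7 (-1.25), HNRNPR (-1.13) and HNRNPA2B1 (-1.04) were still 2-fold lower, as were 5.49% of all genes. The SRSF and HNRNP medians became -0.37 and -0.38 when centred, -0.84 and -0.83 as TPM (-0.45 for all genes), -0.20 and -0.28 relative to GC bins, and -0.40 and -0.53 relative to FPKM bins. With shALKBH5, the 0 members higher became 2 as TPM (SRSF5 and SRSF7; 8.40% of all genes), 2 at 1.5-fold (8.49%), 1 on total reads (SRSF5; 2.71%) and 1 relative to FPKM bins (SRSF5; 1.67%). The 0 lower became 2 at 1.5-fold (13.6%) and 1 relative to GC bins (HNRNPLL; 1.77%). These shares of members with shALKBH5 are near or below those of all genes, or rest on 1 gene. The SRSF and HNRNP medians became 0.27 and 0.037 as TPM (0.23 for all genes), 0.19 and -0.038 on total reads (0.10 for all genes), -0.15 and -0.36 relative to GC bins, and 0.13 and 0.051 relative to FPKM bins. The same members entered each of these, so the shifts follow from the scale, bin or threshold itself. The GC and FPKM bins were chosen after seeing the data. Centring took HNRNPA2B1, HNRNPDL, HNRNPR, SRSF7 and SRSF8 under the 2-fold rule in hypoxia, at -0.71, -0.82, -0.81, -0.92 and -0.66. SRSF1 (-1.08) and SRSF10 (-1.07) passed it as TPM, and HNRNPA1L2 (-1.06) with a constant of 0.1 FPKM. No direction of a called member reversed under the alternatives run. Depth limits HNRNPA1L2 and HNRNPA1P48 most, and the WT libraries allow no interval.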
